A study of Mus musculus with 6 samples.

Results

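The immediate early genes Fos, Fosb, Jun, Junb, Egr1, Atf3, Ier2, Ier3, Dusp1 and Zfp36 were measured in hepatocytes taken from fibrotic mouse livers. These 10 genes were listed by function, as genes transcribed within minutes of a stimulus, but with earlier results of these data known. All 10 were found among the 34745 genes of the deposited tables, and all 10 were among the 14417 genes that passed the filter on low counts. Their mRNA was compared between 3 libraries of FOXA2f/f+CCl4 mice and 3 libraries of FOXA2H-KO+CCl4 mice, each group numbered 1, 2 and 4.

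Every mouse was male and 12 weeks old according to the labels, carried floxed Foxa2 alleles and was given the hepatotoxin carbon tetrachloride (CCl4) over 4 weeks, with 2 injections weekly of 0.25 ml/kg each. FOXA2f/f mice received the AAV8-TBG-Control virus and FOXA2H-KO mice received AAV8-TBG-Cre, in both cases 2 weeks before the first CCl4 injection. The TBG promoter confines Cre to hepatocytes, so that by design Foxa2 is not deleted in the other liver cells. Tissue was collected on the third day once CCl4 dosing had ended, and livers were digested by collagenase perfusion, and hepatocytes were collected by low-speed centrifugation. Cells were thus warmed, digested and spun before lysis in both groups. No library of undigested liver and none of mice without CCl4 was part of this comparison. The labels do not say that each library came from a separate mouse, so that the p-values measure the spread between these libraries, which may be technical.

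Immediate early genes are switched on without new protein synthesis, through MAP kinases acting on serum response factor with its Elk partners and on CREB, and their short-lived mRNAs disappear again when the stimulus ends. Fos and Jun family proteins pair through leucine zippers to form the transcription factor AP-1. In liver these genes respond to growth factors after partial hepatectomy, to oxidative injury and to cytokines, and they are also known to be switched on when liver is perfused with collagenase and cells are handled outside the body.

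Some of the elements through which signals reach these genes lie close to the start of transcription. RefSeq promoters on GRCm38.p6 were at hand for 8 of the 10 genes, the exceptions being Egr1 and Ier2. Stretches of up to 200 bases before the annotated start are shown for the 4 AP-1 genes and for Dusp1 because these are the genes with the largest spread between libraries below, and the capitals mark TGACG, the core bound by CREB and ATF proteins, the full palindrome TGACGTCA, the variant TGACATCA, the EGR element GCGNGGGCG and TATAAA. The stretches are Fos chr12:85473690-85473889 on the plus strand, Fosb chr7:19310052-19310245, Jun chr4:95052223-95052422, Junb chr8:84978749-84978948 and Dusp1 chr17:26508520-26508672, the last 4 on the minus strand, each read 5′ to 3′ in the direction of the gene and ended before any annotated exon.
Fos: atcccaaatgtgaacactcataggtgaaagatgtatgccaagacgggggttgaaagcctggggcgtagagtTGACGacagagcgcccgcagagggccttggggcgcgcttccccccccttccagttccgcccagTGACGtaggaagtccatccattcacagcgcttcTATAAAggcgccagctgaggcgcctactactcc
Fosb: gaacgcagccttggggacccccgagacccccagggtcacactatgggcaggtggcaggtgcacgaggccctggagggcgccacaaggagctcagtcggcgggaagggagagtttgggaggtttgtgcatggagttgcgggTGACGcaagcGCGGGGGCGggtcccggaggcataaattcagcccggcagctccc
Jun: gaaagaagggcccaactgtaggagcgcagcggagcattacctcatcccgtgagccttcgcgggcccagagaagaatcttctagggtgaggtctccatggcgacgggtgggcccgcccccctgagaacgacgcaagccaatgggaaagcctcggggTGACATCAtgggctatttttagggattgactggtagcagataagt
Junb: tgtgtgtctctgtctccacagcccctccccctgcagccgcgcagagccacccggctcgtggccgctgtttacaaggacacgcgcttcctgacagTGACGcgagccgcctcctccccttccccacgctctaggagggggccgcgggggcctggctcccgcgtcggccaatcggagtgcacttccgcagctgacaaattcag
Dusp1: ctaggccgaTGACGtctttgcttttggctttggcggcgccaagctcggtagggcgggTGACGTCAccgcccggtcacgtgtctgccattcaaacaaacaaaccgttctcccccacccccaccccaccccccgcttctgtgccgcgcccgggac

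Both strands of the 250 bases before the start were searched. Elements further upstream, CArG boxes included, were outside this window, so that a motif not found here may still be present in the gene. TGACG was present in 5 of the 8 promoters, those of Fos, Fosb, Junb, Dusp1 and Atf3, and in 17.8% of all 32851 promoters in the table. Fos carried it at 129 and at 66 bases before the start. Dusp1 carried it at 191 bases and also within the full palindrome TGACGTCA at 143 bases, a motif present in 1.55% of all promoters. Jun held TGACATCA at 45 bases before the start, as did 2.93% of all promoters. The EGR element was found in Fosb and Zfp36 and in 4.7% of all promoters, the CArG box of serum response factor in Zfp36 and in 1.47%, and TATAAA in Fos and in 12.4%. The AP-1 element TGANTCA was found in none of the 8 windows and in 6.75% of all promoters. A match describes these letters only, and binding was not measured.

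Total counts were between 20983455 and 28327765 per library, and the 10 genes together took between 5356 and 29149 of them. Values below are counts scaled to a common library size (CPM) with TMM factors, which correct for differences in composition, unless FPKM, which is also scaled to gene length, is named. Foxa2, the deleted gene, stood at 16.3 ± 2.75 CPM (SD, n = 3) in FOXA2f/f and at 1.14 ± 0.438 CPM (SD, n = 3) in FOXA2H-KO hepatocytes. The fitted log2 fold change of Foxa2 was -3.85 (SE 0.31; edgeR quasi-likelihood test, Benjamini-Hochberg adjusted p = 0.0313), and no FOXA2H-KO library exceeded 1.62 CPM.

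For each of the 10 genes the fitted log2 difference between the genotypes was smaller than the pooled SD of log2(CPM + 1) within them, and 1 library stood apart. All 10 genes had their lowest CPM in FOXA2f/f replicate 2, whereas 29.2% of the 14417 genes tested were lowest in that library. This held for 10 of 10 genes also when CPM was scaled by library size alone and in FPKM, scales on which 43.21% of tested genes were lowest there. The summed level was 294 CPM in FOXA2f/f replicate 2, 788 and 926 CPM in FOXA2f/f replicates 1 and 4, and 690, 765 and 653 CPM in FOXA2H-KO replicates 1, 2 and 4. No other library held the lowest value of any of the 10 genes. FOXA2f/f replicate 4 held the highest value of 5 genes, FOXA2f/f replicate 1 of 2, and each FOXA2H-KO library of 1.

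**Figure D1:**
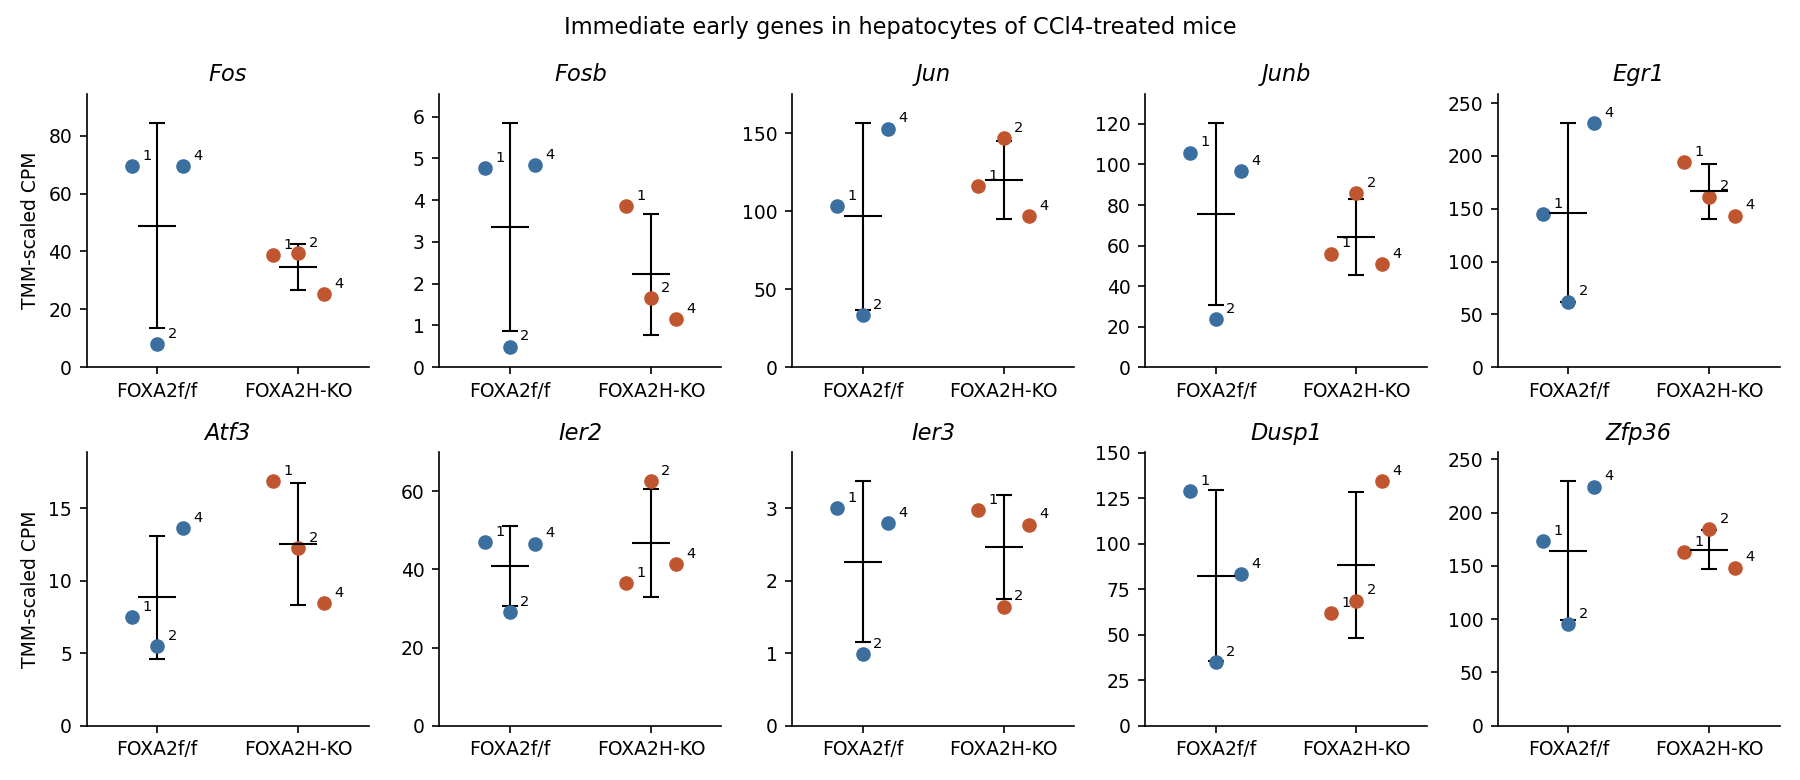
TMM-scaled CPM of each immediate early gene in the 3 FOXA2f/f (blue) and 3 FOXA2H-KO (orange) libraries, with replicate numbers beside the points, horizontal bars for group means and error bars for the SD (n = 3). FOXA2f/f replicate 2 is the lowest point in all 10 panels, from 0.493 CPM for Fosb to 95.4 CPM for Zfp36.

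The AP-1 genes are described first. Fos, the partner that gives AP-1 its strongest DNA binding, stood at 69.4, 7.95 and 69.5 CPM in FOXA2f/f replicates 1, 2 and 4 and at 38.8, 39.5 and 25.3 CPM in FOXA2H-KO replicates 1, 2 and 4. FOXA2f/f replicates 1 and 4 thus lay above the 3 FOXA2H-KO libraries and replicate 2 below them, so that the groups overlapped. The highest library exceeded the lowest 8.74-fold, from counts of 145 to 2186. The log2 fold change of Fos, FOXA2H-KO over FOXA2f/f, was -0.50 (SE 0.65; edgeR adjusted p = 0.983).

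Fosb, a close relative of Fos that is also made as a truncated form, was the scarcest of the 10, with 4.77, 0.493 and 4.83 CPM in FOXA2f/f and 3.86, 1.64 and 1.16 CPM in FOXA2H-KO libraries. Its counts were only 9 to 152, and its FPKM was 0.114 to 1.43. FOXA2f/f replicate 2 again lay below the FOXA2H-KO libraries and the other 2 FOXA2f/f libraries above them. The log2 fold change of Fosb was -0.61 (SE 0.76; edgeR adjusted p = 0.983).

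Jun, which can pair with itself or with Fos proteins, stood at 103, 33.4 and 153 CPM in FOXA2f/f and at 116, 147 and 96.8 CPM in FOXA2H-KO libraries. The FOXA2H-KO libraries fell between the extremes of the FOXA2f/f group, and the log2 fold change was 0.31 (SE 0.47; edgeR adjusted p = 0.983). Junb, a Jun relative that activates fewer targets and can oppose Jun, stood at 106, 23.8 and 96.9 CPM in FOXA2f/f and at 56.1, 85.9 and 50.7 CPM in FOXA2H-KO libraries. As with Fos, the FOXA2H-KO values of Junb lay below FOXA2f/f replicates 1 and 4 and above replicate 2. Junb had a log2 fold change of -0.24 (SE 0.49; edgeR adjusted p = 0.991).

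The mix of AP-1 transcripts also varied by library. Per length, in FPKM, Fos stood at 0.565, 0.2 and 0.382 of the Jun level in FOXA2f/f replicates 1, 2 and 4 and at 0.281, 0.227 and 0.22 in FOXA2H-KO replicates 1, 2 and 4. This ratio was lowest in FOXA2f/f replicate 2, but FOXA2H-KO replicates 2 and 4 came close to it. Fos and Fosb made up 8.69% of the summed FPKM of the 4 AP-1 genes in FOXA2f/f replicate 2, against 10.5% to 17.9% in the other 5 libraries. The ratio of Junb to Jun was 1.78, 1.23 and 1.1 in FOXA2f/f and 0.836, 1.02 and 0.908 in FOXA2H-KO libraries, which did not overlap. A two-sided exact permutation test of this ratio gave p = 0.1, the smallest p that 3 libraries against 3 can give. It was 1 of 9 ratios, sums and shares computed from FPKM, over which its exact permutation p adjusted to 0.9, and each of the other 8 gave an exact permutation p of 0.4 or more.

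Egr1, a zinc finger factor induced through serum response factor, stood at 145, 62.0 and 231 CPM in FOXA2f/f and at 194, 162 and 144 CPM in FOXA2H-KO libraries. The 2 ends of the range were both FOXA2f/f libraries, and the log2 fold change was 0.19 (SE 0.41; edgeR adjusted p = 0.992). Atf3, a stress-induced factor that often represses its targets, stood at 7.47, 5.48 and 13.6 CPM in FOXA2f/f and at 16.8, 12.2 and 8.46 CPM in FOXA2H-KO libraries. The mean was 8.85 ± 4.23 CPM in FOXA2f/f and 12.5 ± 4.20 CPM in FOXA2H-KO (SD, n = 3), and FOXA2f/f replicate 4 lay within the FOXA2H-KO range. Atf3 had the smallest unadjusted p of the 10 genes, 0.227, with a log2 fold change of 0.49 (SE 0.37; edgeR adjusted p = 0.983).

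Ier2, a nuclear immediate early protein, had the smallest pooled SD of the 10 over all 6 libraries. Within FOXA2H-KO, however, only Fosb (0.61), Dusp1 (0.60) and Atf3 (0.46) had a larger SD than Ier2 (0.40). Ier2 stood at 47.0, 29.1 and 46.6 CPM in FOXA2f/f and at 36.4, 62.6 and 41.3 CPM in FOXA2H-KO libraries. Its log2 fold change was 0.19 (SE 0.26; edgeR adjusted p = 0.983). Ier3, which limits cell death after stress, was scarce, with 3.01, 0.987 and 2.80 CPM in FOXA2f/f and 2.98, 1.64 and 2.77 CPM in FOXA2H-KO libraries, from counts of 18 to 88. Ier3 had a log2 fold change of 0.11 (SE 0.45; edgeR adjusted p = 0.993).

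The last 2 members end the response. Dusp1, a nuclear phosphatase that switches off p38, JNK and ERK kinases, stood at 129, 35.1 and 83.3 CPM in FOXA2f/f and at 61.8, 68.8 and 134 CPM in FOXA2H-KO libraries. Dusp1 was the only one of the 10 with its highest value in FOXA2H-KO replicate 4, the library in which Fos, Fosb, Jun, Junb, Egr1, Atf3 and Zfp36 were lowest within the FOXA2H-KO group. Per length, Dusp1 stood at 3.91 times the Fos level in that library and at 3.25 times in FOXA2f/f replicate 2, against 0.885 to 1.37 times in the other 4 libraries. The log2 fold change of Dusp1 was 0.10 (SE 0.47; edgeR adjusted p = 0.995).

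Zfp36, or tristetraprolin, which binds AU-rich elements and speeds the decay of Fos, Tnf and other short-lived mRNAs, stood at 173, 95.4 and 225 CPM in FOXA2f/f and at 163, 185 and 148 CPM in FOXA2H-KO libraries. The means were 164 ± 65.0 and 165 ± 18.2 CPM (SD, n = 3). For Zfp36 the log2 fold change was 0.01 (SE 0.29; edgeR adjusted p = 1).

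None of the 10 genes was called between the genotypes by edgeR at an adjusted p under 0.05 and a fold change of at least 2, and none had an unadjusted p under 0.05. Over all 14417 genes, the call was made for 1 gene (0.00694%), Foxa2 itself, and an unadjusted p under 0.05 was found for 745 (5.17%). DESeq2 and the edgeR exact test, which called 75 and 64 genes in all, called none of the 10 either. The 2 groups overlapped for each of the 10 genes, whereas 10.5% of tested genes showed no overlap. The two-sided exact permutation p over CPM was between 0.4 and 1 for the 10 genes, in a design whose smallest possible p is 0.1. The median log2 fold change of the 10 was 0.10, with 7 genes above 0 and 3 below, beside -0.01 over all tested genes. When library size alone replaced TMM, the median of all tested genes moved to 0.10 and that of the 10 to 0.19. The largest fitted difference, that of Fosb, corresponds to 1.52-fold. These values do not show that the genotypes were alike, since standard errors reached 0.76 on the log2 scale.

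Measured as the SD of log2(CPM + 1) between libraries of a group and pooled over both groups, the median of the 10 genes was 0.74, against 0.22 over all tested genes. Fos had an SD of 1.24, which 0.215% of tested genes reached or exceeded, followed by Fosb (0.91), Junb (0.88), Jun (0.82), Dusp1 (0.79), Egr1 (0.69) and Atf3 (0.53). These 7 lay at or above the 90th percentile of tested genes, 0.50. Ier3 and Zfp36 at 0.46 each and Ier2 at 0.39 lay below it.

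**Figure D2:**
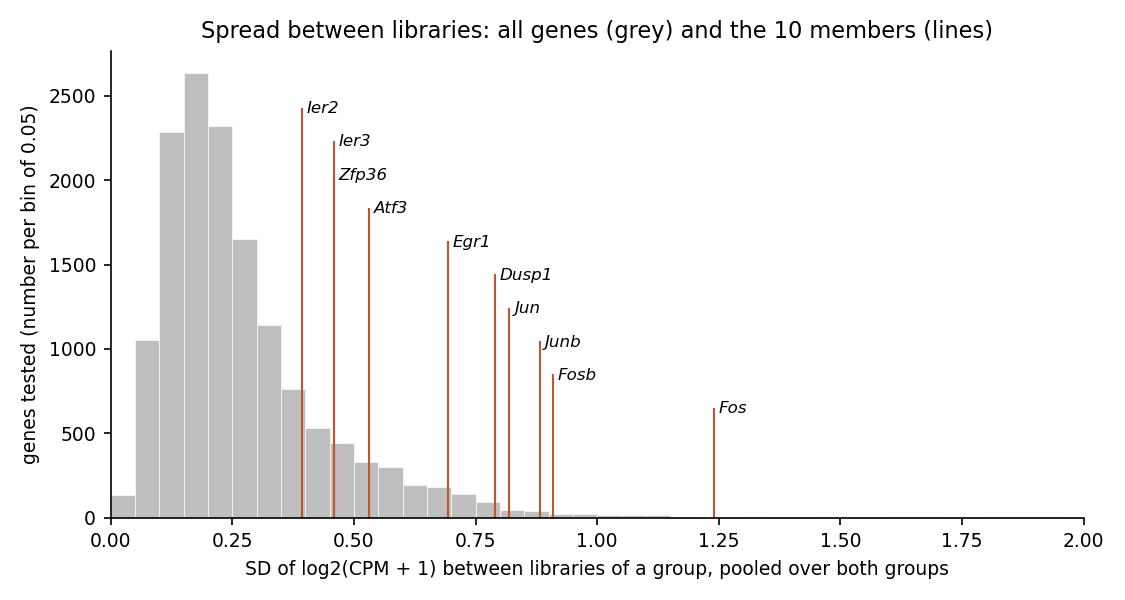
Histogram of the pooled within-group SD of log2(CPM + 1) over the 14417 tested genes (grey bars, bins of 0.05), with a line for each of the 10 genes whose height has no meaning. The lines run from 0.39 for Ier2 to 1.24 for Fos, to the right of the bulk of genes, whose median is 0.22.

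The spread was uneven between the genotypes. The SD was larger in FOXA2f/f than in FOXA2H-KO for 9 of the 10 genes, the exception being Ier2, while 71.7% of all tested genes had the larger SD in FOXA2f/f. The median SD of the 10 genes was 0.95 in FOXA2f/f and 0.37 in FOXA2H-KO, and over all tested genes it was 0.24 and 0.16. Without FOXA2f/f replicate 2 the median SD of the 10 in FOXA2f/f dropped to 0.18, equal at this rounding to the 0.18 of all tested genes, and the pooled median became 0.33 against 0.19. That median of 0.18 hides a wide split between the genes, each SD resting on 2 libraries. Atf3 (0.56), Egr1 (0.47), Dusp1 (0.44) and Jun (0.40) stayed well above the tested median, whereas Fos (0.00093), Ier2 (0.0078) and Fosb (0.011) were nearly equal in FOXA2f/f replicates 1 and 4. Within FOXA2H-KO, Fosb (SD 0.61), Dusp1 (0.60) and Atf3 (0.46) had the largest SD of the 10, with 1.71%, 1.803% and 4.91% of tested genes reaching or exceeding their FOXA2H-KO SD.

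The comparison between genotypes was repeated with each library left out. Since FOXA2f/f replicate 2 was the lowest library for all 10 genes, leaving it out had to lower each fold change, and the direction of that shift is no further observation. The median log2 fold change of the 10 genes moved from 0.10 to -0.25, and 8 of 10 were then below 0, while the median over all tested genes was -0.01. Fos, Fosb and Junb then lay lower in each FOXA2H-KO library than in either remaining FOXA2f/f library, an arrangement found for 10.2% of tested genes. The log2 fold change of Fos became -1.004 (SE 0.20), with an unadjusted p of 0.0013 and an adjusted p of 0.228 in edgeR, and that of Junb -0.66 (SE 0.23), with an unadjusted p of 0.0223 and an adjusted p of 0.722. These were the only 2 of the 10 with an unadjusted p under 0.05, which 5.59% of the 14821 genes tested in that fit had. This library stood out by the values of these same genes, and leaving it out also removed their spread. The SD of Fos in FOXA2f/f fell from 1.72 to 0.00093. The p-values of this fit are therefore no further support. The shares over all genes are no like reference, since only 29.2% of tested genes were lowest there. Fosb stood at -1.10 (SE 0.47; edgeR adjusted p = 0.906). None of the 10 was among the 6 genes that edgeR called without this library. Without FOXA2f/f replicate 4, the library that held the highest value of 5 of the 10 genes, Atf3 had a log2 fold change of 0.95, with an unadjusted p of 0.0182 and an adjusted p of 0.232 in edgeR, the only 1 of the 10 with an unadjusted p under 0.05 in that fit, which 16.6% of its 14560 genes had.

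**Figure D3:**
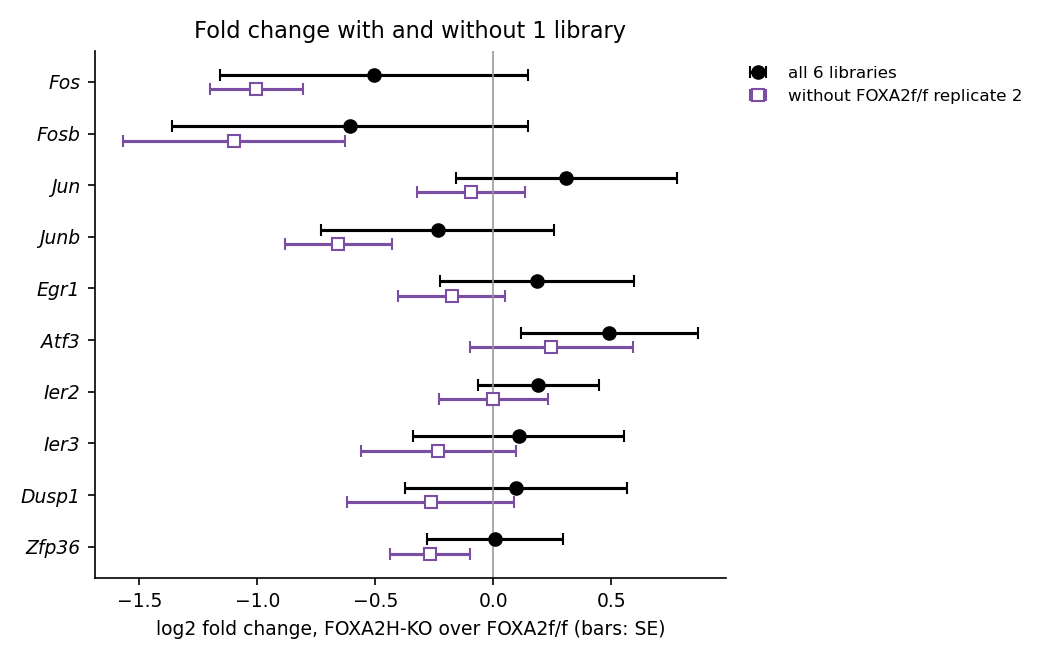
Log2 fold change, FOXA2H-KO over FOXA2f/f, of the 10 genes with SE bars, from all 6 libraries (filled circles) and without FOXA2f/f replicate 2 (open squares). Each square lies to the left of its circle, with Ier2 moving from 0.19 to 0.00, and that of Fos moves from -0.50 to -1.004.

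Markers of the cell types that a hepatocyte preparation can hold varied between the libraries as well. The 8 hepatocyte markers, Alb and Hnf4a among them, were detected in every library. Their highest TMM-scaled sum was in FOXA2f/f replicate 2, at 130% of the mean of the other 5. That library had the smallest TMM factor, 0.870, and on library size alone this excess would be smaller. Alb took 10.8% of its counts, against 9.38% to 11.0% in the other 5 libraries. The summed macrophage markers (9 genes, each lowest in FOXA2f/f replicate 2) ranged from 525 to 2495 CPM in FOXA2f/f and from 1139 to 1887 CPM in FOXA2H-KO libraries, with none at 0 in any library. In FOXA2f/f replicate 2 they stood at 31.3% of the mean of the other 5 libraries, the endothelial markers (8 of 9 lowest there) at 45.5%, and the stellate cell and fibroblast markers (6 of 10 lowest there) at 53.8%. The neutrophil markers stood at 21.8%, the lymphocyte markers at 31.8% and the cholangiocyte markers at 40.6%, beside 38.4% for the sum of the 10 immediate early genes. In bulk RNA, fewer cells of a type and less RNA per cell cannot be told apart. Macrophages, endothelial and stellate cells express the immediate early genes too, and the part of these cells in the values of the 10 genes was not tested.

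The neutrophil sum ranged from 10.7 to 98.2 CPM in FOXA2f/f and from 19.4 to 31.3 CPM in FOXA2H-KO libraries, with Ly6g at 0 in some. Of the 7 neutrophil markers tested, 5 were lower and 2 higher in FOXA2H-KO, with a median log2 fold change of -1.94. None was called, but 4 had an unadjusted p under 0.05 in edgeR, all 4 lower in FOXA2H-KO. Without FOXA2f/f replicate 2, 7 of 7 were lower, with a median of -2.44, and Fos, Fosb and Junb were lower too in that fit. Without that library 8 of 9 endothelial and 6 of 9 macrophage markers were also lower, against 5 and 2 with all 6 libraries. FOXA2f/f replicate 2 was lowest for 5 of the 7 neutrophil, 8 of 9 endothelial and 9 of 9 macrophage markers. Leaving it out had to lower the fold change of those genes, so that the direction of this shift is no further observation. Of the other lists, 5 of 10 stellate cell and fibroblast, 4 of 8 hepatocyte, 2 of 6 lymphocyte and 0 of 6 cholangiocyte markers were lower without that library. With all 6 libraries these counts were 1, 7, 1 and 0. The part of any of these cells in the values of Fos, Fosb and Junb was not tested. The endothelial sum ranged from 269 to 912 CPM in FOXA2f/f and from 443 to 587 CPM in FOXA2H-KO, and that of stellate cells and fibroblasts from 1084 to 2781 and from 1617 to 2648 CPM. The lymphocyte sum was 19.4 to 83.3 CPM in FOXA2f/f and 43.7 to 74.9 CPM in FOXA2H-KO, with Cd3e and Cd3g at 0 in some libraries. The cholangiocyte sum was 174 to 367 CPM in FOXA2f/f and 252 to 708 CPM in FOXA2H-KO, with 6 of 6 markers higher in FOXA2H-KO, none called, 2 at an unadjusted p under 0.05 in edgeR and a median log2 fold change of 0.82. For each of these lists the ranges of the groups overlapped.

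**Figure D4:**
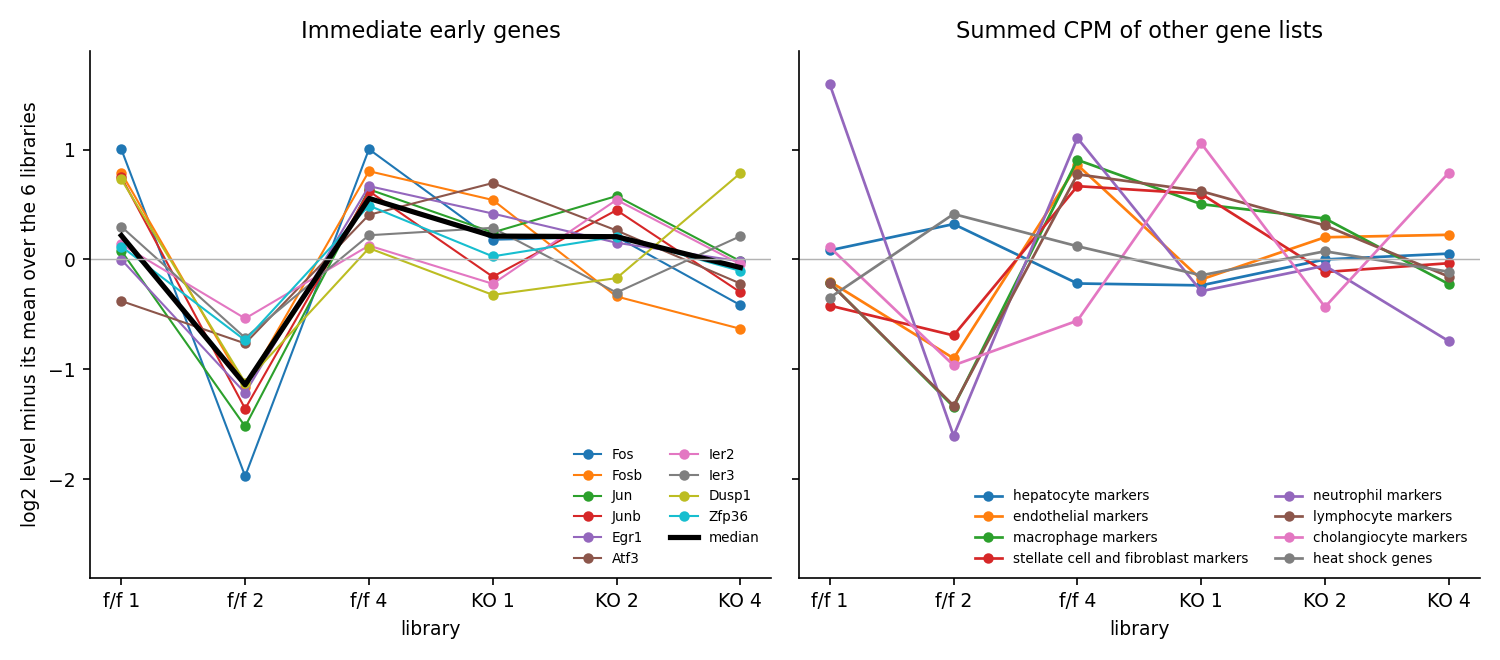
Level in each library as log2 minus its mean over the 6 libraries, for the 10 immediate early genes and their median (left, log2(CPM + 1)) and for the summed CPM of the cell type marker lists and the heat shock genes (right). All CPM are TMM-scaled, and the place of FOXA2f/f replicate 2 depends in part on that scaling. In FOXA2f/f replicate 2 the median of the 10 genes stands at -1.14 and the macrophage sum at -1.34, while the hepatocyte sum stands at 0.32 and the heat shock sum at 0.41.

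Other genes of the same response were less uniform. Of 8 other AP-1 subunits, 5 had their lowest value in FOXA2f/f replicate 2, and their sum stood at 75.3% of the mean of the other 5 libraries. None was called or had an unadjusted p under 0.05. The 2 with the smallest p were Mafg, a small Maf protein, with a log2 fold change of 0.18 (SE 0.16; edgeR adjusted p = 0.983), and Jund, the most constant Jun protein, with -0.17 (SE 0.18; edgeR adjusted p = 0.983).

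Of the 20 other immediate early transcription factors, 17 were tested, 10 were lowest in FOXA2f/f replicate 2 and none was called. An unadjusted p under 0.05 was found for 3, of which 1 was higher and 2 lower in FOXA2H-KO. Klf10, a TGF-beta-induced repressor, stood at 89.3, 39.0 and 42.7 CPM in FOXA2f/f and at 27.1, 20.9 and 27.7 CPM in FOXA2H-KO libraries. Bhlhe40, a repressor linked to the clock and to hypoxia, stood at 251, 118 and 139 CPM against 103, 86.6 and 91.4 CPM. For both the groups did not overlap, and neither passed the adjusted threshold, with log2 fold changes of -1.17 (SE 0.32) and -0.86 (SE 0.28) and edgeR adjusted p of 0.689 and 0.812.

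Among 22 other early response effectors, 21 were tested, none had an unadjusted p under 0.05 and 12 were lowest in FOXA2f/f replicate 2. Btg1, an anti-proliferative gene, had a log2 fold change of 0.29 (SE 0.13) and Trib1, a pseudokinase, of 0.44 (SE 0.21), each with an edgeR adjusted p of 0.941. Of 17 feedback inhibitors, 12 were lowest in FOXA2f/f replicate 2 and 1 had an unadjusted p under 0.05. That gene was Dusp6, an ERK phosphatase, at 64.8, 65.3 and 66.7 CPM in FOXA2f/f and 87.7, 73.8 and 95.8 CPM in FOXA2H-KO libraries, with a log2 fold change of 0.39 (SE 0.13; edgeR adjusted p = 0.836). Unlike Dusp1, Dusp6 did not dip in FOXA2f/f replicate 2 in TMM-scaled CPM, but on library size alone it would be lowest there. Tnfaip3, an inhibitor of NF-kappaB signalling, had a log2 fold change of 0.50 (SE 0.24; edgeR adjusted p = 0.941).

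The 23 kinases and factors upstream of the response were steady, with a median pooled SD of 0.15. Their TMM-scaled sum in FOXA2f/f replicate 2 was at 106% of the mean of the other libraries, but on library size alone it would lie below that mean. Map2k6, a p38 kinase kinase, had a log2 fold change of 0.48 (SE 0.16; edgeR adjusted p = 0.807), and Elk1 of 0.36 (SE 0.21; edgeR adjusted p = 0.961). The inflammatory genes that follow the first wave were lowest in FOXA2f/f replicate 2 for 6 of the 8 tested out of 11, with a sum at 37.1%. The neutrophil chemokine Cxcl1 stood at 121, 29.6 and 74.8 CPM in FOXA2f/f and at 32.5, 26.8 and 25.9 CPM in FOXA2H-KO libraries, which overlapped, with a log2 fold change of -1.40 (SE 0.44; edgeR adjusted p = 0.791). Its relative Cxcl2 stood at 0.430, 0.274 and 0.763 CPM against 1.07, 1.08 and 1.11 CPM, with a log2 fold change of 1.10 (SE 0.43; edgeR adjusted p = 0.918).

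Stress genes of other pathways were mostly not lowest in FOXA2f/f replicate 2. Of 8 heat shock genes none was lowest in that library in TMM-scaled CPM. Their TMM-scaled sum was highest there, at 140% of the mean of the others. That library had the smallest TMM factor, 0.870, against 1.11 in FOXA2f/f replicate 4. On library size alone the sum would be higher in FOXA2f/f replicate 4 than in replicate 2. Hspb1, a small heat shock protein, had a log2 fold change of 1.16 (SE 0.33; edgeR adjusted p = 0.716) and Bag3, a chaperone partner, of -0.53 (SE 0.23; edgeR adjusted p = 0.941). Another list of 8 genes held those of ATF4 and CHOP themselves and targets of these factors of the integrated stress response, to which Atf3 also belongs. Of these 8, 1 was lowest in FOXA2f/f replicate 2, and their TMM-scaled sum stood at 145%. Vldlr, a lipoprotein receptor, stood at 9.41, 10.97 and 11.2 CPM in FOXA2f/f and at 43.2, 25.7 and 31.2 CPM in FOXA2H-KO libraries, with a log2 fold change of 1.66 (SE 0.21; edgeR adjusted p = 0.450). Asns, asparagine synthetase, had a log2 fold change of -2.12 (SE 0.44; edgeR adjusted p = 0.579). Neither was called, and Atf3 lay at 0.49 on the same scale.

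Per length and as a mean over the 6 libraries, the order of the 10 genes by FPKM was Zfp36 (93.7), Junb (38.5), Jun (34.9), Ier2 (29.1), Egr1 (21.5), Dusp1 (16.6), Fos (11.3), Atf3 (4.32), Ier3 (2.13) and Fosb (0.768). Zfp36 was the highest and Fosb the lowest of the 10 in each of the 6 libraries. The ranges of every pair of neighbours in this order overlapped. Within libraries, however, Zfp36 exceeded Junb, Atf3 exceeded Ier3 and Ier3 exceeded Fosb in 6 of 6, while Junb over Jun, Ier2 over Egr1 and Egr1 over Dusp1 held in only 4 of 6. The order depends on the gene lengths used. The deposited FPKM values imply a length of 7520 bases for Egr1 and 1792 for Zfp36, whereas GENCODE M21 gives 4484 and 3470 exonic bases, and with the latter Egr1 (34.9 CPM per kilobase) came second after Zfp36 (47.5).

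The 10 genes outside the list whose profile over the 6 libraries was most like the median of the immediate early genes were Csf1, Slc2a3, Smad6, Spic, Neurl3, Ssbp4, Tcf21, Ripk3, Rims3 and Abcc4, out of 12872 genes with a mean of at least 1 CPM. Likeness was the root mean square difference in log2(CPM + 1) from that median profile after centring, which was 0.0999 for Csf1 and 0.135 for Abcc4, against a median of 0.587 over all candidates. Csf1, the most alike, stood at 19.7, 8.61 and 27.3 CPM in FOXA2f/f and at 19.6, 19.0 and 17.3 CPM in FOXA2H-KO libraries. Next in order, Slc2a3 stood at 1.98, 0.274 and 3.27 CPM against 2.17, 2.57 and 2.08 CPM. Smad6 followed at 9.79, 4.11 and 14.4 CPM against 10.2, 9.70 and 9.76 CPM. None of the 10 most alike genes was on any of the 15 other lists, and the members themselves lay between 0.138 (Egr1) and 0.522 (Dusp1) from their own median.

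GENCODE M21 places Fos at chr12:85473890-85477273, Jun at chr4:95049034-95052222, Junb at chr8:84974484-84978718, Fosb at chr7:19302696-19310051, Zfp36 at chr7:28376784-28380253, Dusp1 at chr17:26505590-26562128, Ier3 at chr17:35821684-35822923, Ier2 at chr8:84661331-84662852 and Atf3 at chr1:191170296-191218039 on GRCm38. All 10 genes are protein coding. Exons of a gene on the opposite strand cover 7.28% of the exonic bases of Jun (Junos), 7.52% of Junb (Prdx2), 3.60% of Zfp36 (Gm44710) and 0.332% of Dusp1 (Ergic1). Whether counting used strand is not given in the sources used here, so that reads in these stretches cannot be assigned with certainty.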

How the data were processed

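Total RNA of primary hepatocytes was sequenced as paired-end libraries. Per the labels' processing notes, the submitters used CASAVA 1.8, TopHat2 2.1.0, HTSeq and edgeR with the mm10 build. The annotation and counting mode are not given in the sources used here. The authors deposited, for each library, whole-number counts per gene without normalization and FPKM values. The deposited FPKM values are counts divided by the library total and by 1 length per gene, so they carry no further scaling between libraries. The 10 genes, the 15 other lists, the 2 genes of smallest p named per list and the 10 most alike genes were set with earlier results of these data known. The tables pair gene identifiers with symbols for 34267 of 34745 genes, and 186 of 186 listed genes were found, 4 under a newer symbol.

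The count model was the quasi-likelihood fit of edgeR 4.0.16 under R 4.3.3 (filterByExpr, TMM, glmQLFit, glmQLFTest), run across 14417 genes with p-values adjusted over all of them by the Benjamini-Hochberg method. A gene was called at an adjusted p under 0.05 and a fold change of at least 2. The common biological coefficient of variation was 25.3%. The fit was tested on simulated data with known changes. No simulated library was made to stand apart, so that run does not bear on how the fit treats FOXA2f/f replicate 2. Alternatives used DESeq2 1.42.0, limma 3.58.1 on log2(FPKM + 1) and log2(FPKM + 0.1) over genes with a mean FPKM of at least 1, other scalings and filters, the edgeR exact test, a replicate block and each library left out. The SD used a pseudocount of 1. Exact permutation tests were two-sided (scipy 1.17.1). Replicates were not near-identical, with a chi-square over degrees of freedom of 38.1 to 133.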

Additional observations from a re-analysis of the deposited data

How the results depend on the processing

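None of the 10 genes was called under any of the 16 alternatives. Over all genes, the 1 called gene became 75 with DESeq2, 64 with the edgeR exact test, 2 with no filter beyond 1 count, and 0 with library size alone, with limma on either FPKM scale and with the replicate block, and 0 to 6 when 1 library was left out, the 6 without FOXA2f/f replicate 2. The cause was not tested. The median log2 fold change of the 10 genes lay between 0.10 and 0.32 under the 9 alternatives that kept every library and between -0.25 (without FOXA2f/f replicate 2) and 0.29 (without FOXA2f/f replicate 4) when 1 was left out. With the replicate block it was 0.19. Same-numbered libraries had deviations correlated at -0.10, 0.07 and -0.25, and no FOXA2f/f library correlated best with its own number, so that the numbers were not taken as pairs. The median within-group SD of the 10 genes was 0.33 to 0.85 with 1 library left out, the lowest without FOXA2f/f replicate 2.

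Of 147 gene-level values under the alternatives, 133 kept their direction, and the smallest adjusted p was 0.228. On log2(FPKM + 1) and log2(FPKM + 0.1), Fos turned to 0.019 and 0.11 and Junb to 0.11 and 0.12. The other 10 turns came from leaving out 1 library: the log2 fold change ranged from -0.094 to 0.81 for Jun, -0.66 to 0.094 for Junb, -0.18 to 0.68 for Egr1, -0.074 to 0.34 for Ier2, -0.23 to 0.36 for Ier3, -0.33 to 0.58 for Dusp1 and -0.27 to 0.30 for Zfp36. Fosb and Atf3 kept their direction throughout, but with 1 library left out ranged from -1.27 to -0.26 and from 0.22 to 0.95. Fosb had no value under the filters of 10 counts in every library and of a mean FPKM of at least 1. Counts of 9 for Fosb and 18 for Ier3 in the lowest library limit what could be seen for these 2 genes, and 3 libraries per group limit all 10.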
